A study of Homo sapiens with 4 samples.

Results

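The 38 genes described here make up glycolysis and the metabolic side of the hypoxia response, and they were followed in NCI-H1048. That established human line was derived from a small cell lung cancer and is of its tuft cell-like form. Members were fixed by name: the symbol in the deposited tables had to equal 1 of 38 listed symbols, and rows of the same symbol were summed. All 38 were found among 35979 symbols. A mean normalized count of at least 20 over the 4 libraries was required for every count of genes below, and 36 members and 14940 genes passed it. PDK4 and CA9 did not.

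Poly(A) RNA had been sequenced in 4 libraries, each from NCI-H1048 cells given 1 kind of guide RNA (gRNA). The COLCA2 knockout group held 2 libraries, numbered gRNA 1 and 2 in their titles, read here as different guides and called COLCA2 guides 1 and 2 below. The POU2F3 knockout group held 1 library, and the wild-type control, called the control below, was 1 library with a non-targeting gRNA. The labels list no other treatment, and they do not say whether the cells were a pool or a clone. The series title presents COLCA2 as a transcriptional co-activator in the tuft cell-like form of this cancer, and POU2F3 is the transcription factor that defines that form.

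Glycolysis splits glucose into pyruvate in the cytoplasm, and pyruvate is then either oxidised in mitochondria or reduced to lactate and exported. The hypoxia-inducible factors HIF-1α (encoded by HIF1A) and HIF-2α (encoded by EPAS1) switch on glucose transporters, glycolytic enzymes, pyruvate dehydrogenase kinases and genes of pH control and vessel growth when oxygen is low. Prolyl hydroxylases such as EGLN3 mark both factors for destruction when oxygen is present, so most of the control of HIF activity lies in protein stability and is not measured by RNA.

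Between 21587741 and 29632382 reads were assigned to genes per library. POU2F3 had a normalized count of 14602 in the control, 3677 and 2351 with COLCA2 guides 1 and 2, and 1449 with POU2F3 gRNA. COLCA2 had 5585, 3119, 3541 and 1393 in the same order. Of 13 tuft cell markers 10 passed the minimum, and TRPM5, CHAT and PTGS1 did not. The summed level of the 13 was 56453 in the control and between 11972 and 17811 in the others, so tuft markers moved with every comparison below, and their part in the results was not tested. None of 4 leukocyte markers passed, with sums of 14.5 to 25.8, and CD3E was listed at 0 throughout. FOXJ1, a ciliated cell marker, had 42.97 in the control and 180.5 to 226 in the others. PECAM1 was the only 1 of 2 endothelial markers to pass, with sums of 21.96 to 31.9 for both, and 2 of 3 fibroblast markers passed, with sums of 1095 to 1397. Of 7 neuroendocrine markers 2 passed, with sums of 90.6 to 94.8 against 198 in the control. In bulk RNA, fewer cells expressing a gene and less of its RNA per cell cannot be told apart.

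Every ratio to the control rests on that single library, and POU2F3 knockout was also sequenced once. The COLCA2 libraries give the only spread within a group, and it holds guide, culture and library differences together. Differences were therefore counted past a fold of 2 on the log2(normalized count + 1) scale, with no test, and for COLCA2 both guides had to pass. That scale slightly understates the change of low genes. Scaling the libraries to 16 reference genes in place of the deposited factors added about 0.14 to the log2 ratio of every member with POU2F3 gRNA, so small POU2F3 values below depend on the scaling.

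With both COLCA2 guides, 6 of the 36 members were at least 2-fold higher than in the control, namely CA12, ADM, SLC2A3, EPAS1, NDRG1 and ALDOC. Over all genes tested 5.79% passed that count, against 16.7% of the members. None of the members was at least 2-fold lower with both guides, where 2.02% of all genes were. With POU2F3 gRNA, 5 members were at least 2-fold higher, namely CA12, SLC2A3, EPAS1, NDRG1 and ADM, a share of 13.9% against 6.73% of all genes. None was at least 2-fold lower, where 3.05% of all genes were. Both target comparisons share the control library, so their values stand side by side and are not independent.

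**Figure D1:**
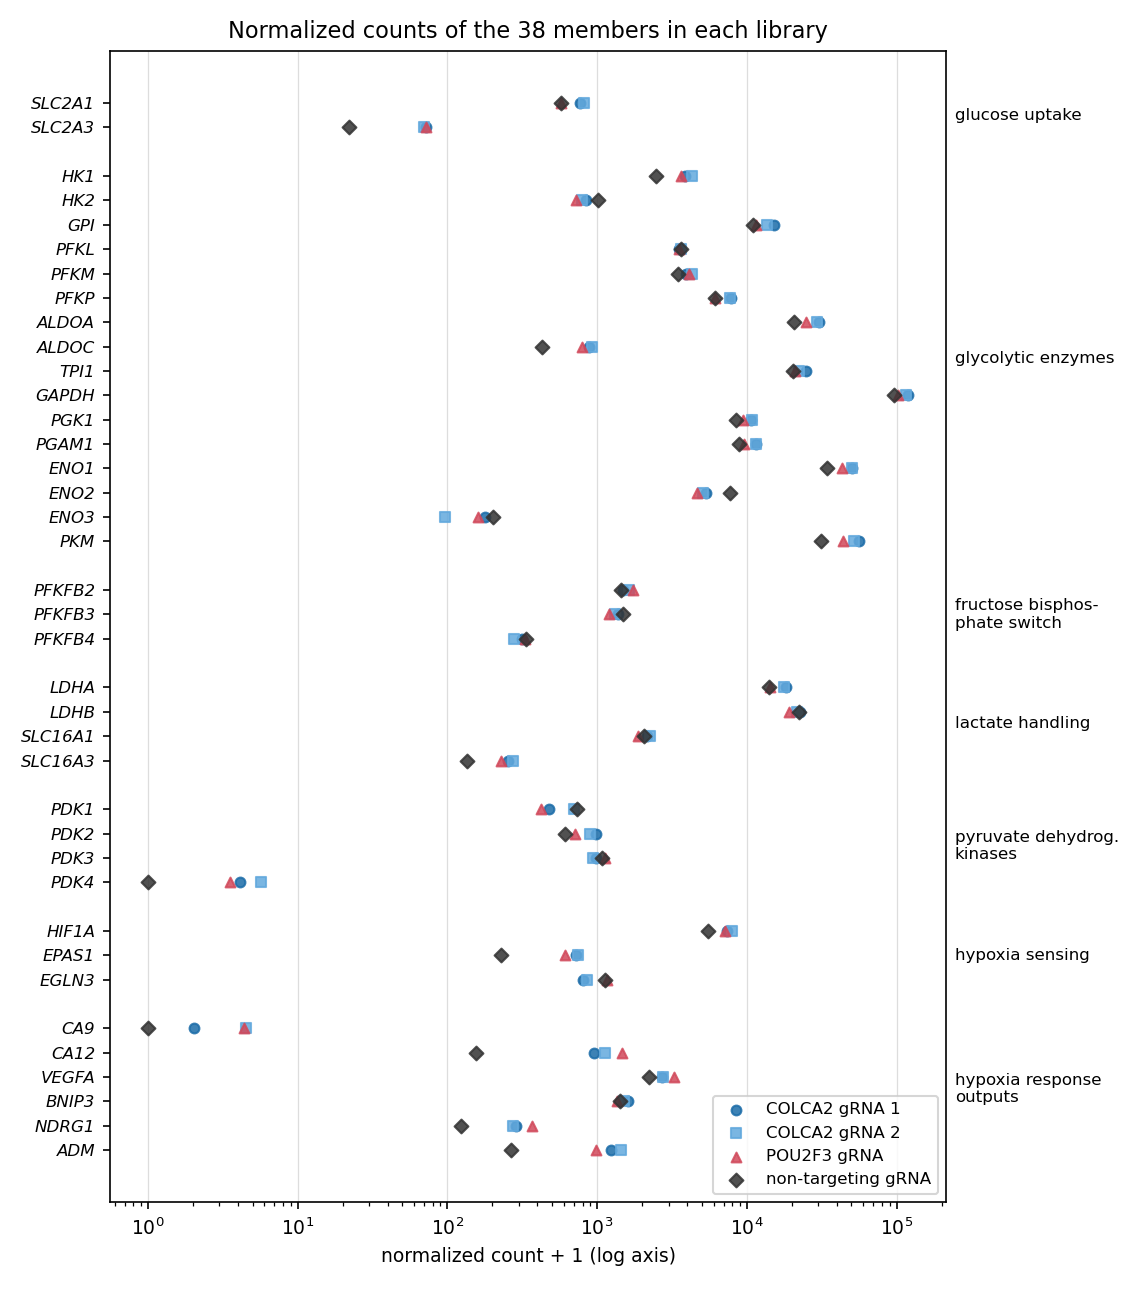
Normalized count plus 1 of each of the 38 genes on a log axis, grouped by role, with 1 symbol per library. The black diamond of the control stands apart on the left for CA12, ADM, EPAS1, NDRG1 and SLC2A3 and on the right for ENO2, while most abundant enzymes lie close together.

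The largest difference among the 36 members was that of CA12, a membrane-bound carbonic anhydrase that helps cells control pH. Its normalized count was 155 in the control, 949 with COLCA2 guide 1, 1123 with COLCA2 guide 2 and 1468 with POU2F3 gRNA. The control was far below the other 3, and POU2F3 gRNA was above both COLCA2 guides. The mean log2 ratio was 2.73 ± 0.17 with the COLCA2 guides (SD, n = 2) and 3.24 with POU2F3 gRNA, a 9.49-fold difference with a 95% exact interval of 8.07 to 11.2. Intervals of this kind cover counting error only. Among all 14940 genes, CA12 ranked 119 from the top with POU2F3 gRNA. CA9, the carbonic anhydrase most often used as a hypoxia marker, was listed at 0 in the control and had 1, 3 and 4 reads with COLCA2 guide 1, COLCA2 guide 2 and POU2F3 gRNA. A count of 0 allows up to 3 reads, so no fold is given for CA9.

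ADM encodes adrenomedullin, a secreted vasodilator peptide. Its normalized count was 265 in the control, 1239 and 1450.1 with COLCA2 guides 1 and 2, and 980.4 with POU2F3 gRNA. The control was again lowest, but here POU2F3 gRNA lay below both COLCA2 guides. The mean log2 ratio of ADM was 2.34 ± 0.16 with the COLCA2 guides (SD, n = 2) and 1.89 with POU2F3 gRNA.

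NDRG1, a stress-responsive gene linked to differentiation and growth arrest, had normalized counts of 123 in the control, 286 and 273 with COLCA2 guides 1 and 2, and 365 with POU2F3 gRNA. As for CA12, the highest value was that of POU2F3 gRNA. The log2 ratios were 1.18 ± 0.048 with the COLCA2 guides (SD, n = 2) and 1.56 with POU2F3 gRNA.

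The other measured outputs of the hypoxia response differed by less than 2-fold. VEGFA, which encodes the main growth factor of blood vessels, had 2214 in the control, 2702 and 2775 with COLCA2 guides 1 and 2, and 3287 with POU2F3 gRNA. It was 1.48-fold higher with POU2F3 gRNA (interval 1.41 to 1.56) and 1.22-fold and 1.25-fold higher with COLCA2 guides 1 and 2. BNIP3, a mitochondrial protein of mitophagy and a classical HIF-1 target, had 1432 in the control, 1600 and 1516 with the COLCA2 guides and 1364 with POU2F3 gRNA. Its log2 ratio with POU2F3 gRNA was -0.071 and turned to 0.073 when libraries were scaled to reference genes. On the deposited scale, CA12, ADM and NDRG1 thus differed more than 2-fold in libraries in which BNIP3 and VEGFA differed by less than 1.5-fold. Scaled to reference genes, the log2 ratio of VEGFA with POU2F3 gRNA went from 0.57 to 0.71, which is past 1.5-fold but short of 2-fold.

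The genes of the hypoxia sensors differed among themselves. EPAS1 had a normalized count of 227 in the control, 719.5 and 746 with COLCA2 guides 1 and 2, and 606 with POU2F3 gRNA. The control did not overlap the COLCA2 pair, whose members lay close together. The mean log2 ratio of EPAS1 was 1.68 ± 0.036 with the COLCA2 guides (SD, n = 2) and 1.41 with POU2F3 gRNA. HIF1A had 5484 in the control, 7316 and 7927 with COLCA2 guides 1 and 2, and 7137 with POU2F3 gRNA, which gave log2 ratios of 0.47 ± 0.082 (SD, n = 2) and 0.38. Per kilobase of transcript, HIF1A remained the more abundant of the pair, and EPAS1 went from 0.031 of its level in the control to 0.075 and 0.071 with the COLCA2 guides and 0.064 with POU2F3 gRNA.

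EGLN3, a prolyl hydroxylase that HIF itself induces, differed between the targets by less than 2-fold, with a single library for POU2F3 gRNA. It had 1128 in the control and 1169 with POU2F3 gRNA, but 809 and 861 with COLCA2 guides 1 and 2. The log2 ratio was -0.43 ± 0.064 with the COLCA2 guides (SD, n = 2) and 0.052 with POU2F3 gRNA. The COLCA2 libraries were the low pair, and the POU2F3 gRNA and control libraries lay together above them.

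Glucose enters cells through SLC2A1 (GLUT1), the common carrier, and SLC2A3 (GLUT3), a carrier of high affinity that is best known from neurons. SLC2A3 had 21.0 in the control, 70.5 and 69.4 with COLCA2 guides 1 and 2, and 70.5 with POU2F3 gRNA. These values rest on 22, 68, 59 and 84 reads, and reads of its pseudogenes came to at most 8.33% of the sum of both. The fold with POU2F3 gRNA was 3.36 with a counting interval of 2.08 to 5.64. SLC2A1 had 575 in the control, 765 and 817 with COLCA2 guides 1 and 2, and 569.9 with POU2F3 gRNA. It was therefore higher with both COLCA2 guides, at log2 0.46 ± 0.067 (SD, n = 2), and level with the control for POU2F3 gRNA at -0.012, a value that became 0.13 under scaling to reference genes. Per kilobase, SLC2A3 stayed far below SLC2A1 in every library, at 0.034 of its level in the control and 0.116 with POU2F3 gRNA.

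The 16 glycolytic enzymes held 1.05% of all normalized counts in the control, 1.35% and 1.31% with COLCA2 guides 1 and 2, and 1.16% with POU2F3 gRNA. Their median log2 ratio was 0.34 with the COLCA2 guides, where the medians of the individual guides were 0.35 and 0.33, and 0.10 with POU2F3 gRNA. The medians over all genes tested were -0.0086 and -0.0037. Of the 16, 12 were above the control with both COLCA2 guides and 4 were below it, while 41.0% of all genes were above and 41.8% below. With POU2F3 gRNA 12 were above and 4 below, where 49.6% of all genes were above and 50.4% below. ALDOC was the only 1 of the 16 to reach a 2-fold difference, and under equal totals it fell short of it with COLCA2 guide 1, at a log2 ratio of 0.99.

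PKM, which encodes the pyruvate kinase of the last step, stood out among the abundant enzymes. It had a normalized count of 31513 in the control, 56296 and 52126 with COLCA2 guides 1 and 2, and 43856 with POU2F3 gRNA. The control was lowest and POU2F3 gRNA lay between it and the COLCA2 pair. The log2 ratios were 0.78 ± 0.079 (SD, n = 2) and 0.48. The counts do not separate the M1 and M2 splice forms of PKM.

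ENO1, the ubiquitous enolase, followed the same order. It had 34125 in the control, 50702 and 50232 with COLCA2 guides 1 and 2, and 43173 with POU2F3 gRNA, or log2 ratios of 0.56 ± 0.0095 (SD, n = 2) and 0.34. ENO2, the enolase of neurons and neuroendocrine cells, went the other way. It had 7751 in the control against 5351 and 5118 with COLCA2 guides 1 and 2 and 4640 with POU2F3 gRNA, at log2 ratios of -0.57 ± 0.045 (SD, n = 2) and -0.74. All 3 targeted libraries were below the control for ENO2 and above it for ENO1. The summed neuroendocrine markers were also highest in the control, at 198 against 90.6 to 94.8, with CALCA and GRP at 0 in every library, and their part in the ENO2 result was not tested. ENO3, the muscle enolase, had 200, 177, 95.3 and 160 in the control, guide 1, guide 2 and POU2F3 gRNA libraries. The COLCA2 guides thus disagreed on ENO3 (SD 0.63 on the log2 scale), and its exons overlap those of PFN1 on the opposite strand, which had 10849% to 26448% of its counts. Without use of the strand, here and for the other overlaps given below, reads of such partners cannot be told apart, so these values are uncertain.

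HK1 and HK2, the hexokinases that trap glucose in the cell, also differed in opposite directions from the control. HK1 had 2481 in the control, 3864 and 4298 with COLCA2 guides 1 and 2, and 3660.4 with POU2F3 gRNA, for log2 ratios of 0.72 ± 0.11 (SD, n = 2) and 0.56. HK2, the isoenzyme most often tied to hypoxia and to glycolytic tumours, had 1017 in the control, 845 and 790.3 with the COLCA2 guides, and 724 with POU2F3 gRNA. Its log2 ratios were -0.32 ± 0.068 (SD, n = 2) and -0.49.

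The aldolases both lay above the control. ALDOA had 20637 in the control, 30136 and 29646 with COLCA2 guides 1 and 2, and 24689 with POU2F3 gRNA. ALDOC, the form known from brain, had 425 against 887 and 924 with the COLCA2 guides and 793 with POU2F3 gRNA. ALDOC was 2.09-fold and 2.18-fold higher with COLCA2 guides 1 and 2 and 1.87-fold higher with POU2F3 gRNA (interval 1.67 to 2.09). These values lie close to 2-fold on either side. Scaled to reference genes, ALDOC was past it with POU2F3 gRNA at a log2 ratio of 1.04, and under equal totals guide 1 was short of it at 0.99.

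The remaining abundant enzymes of the pathway differed by smaller amounts. The log2 ratio with the COLCA2 guides was 0.38 ± 0.12 for GPI, 0.37 ± 0.0035 for PGAM1, 0.34 ± 0.0088 for PGK1, 0.29 ± 0.033 for GAPDH and 0.22 ± 0.098 for TPI1 (SD, n = 2 each). With POU2F3 gRNA the same enzymes had log2 ratios between 0.046 for TPI1 and 0.14 for PGK1, which became 0.19 and 0.28 when scaled to reference genes. GAPDH, often used to normalise other genes, had a normalized count of 96129 in the control, 119742 and 115899 with COLCA2 guides 1 and 2, and 102845 with POU2F3 gRNA. Pseudogenes named after GAPDH held at most 0.243% of the reads of gene and pseudogenes together.

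Phosphofructokinase, the committed step, is built from PFKL, PFKM and PFKP subunits. PFKP, the platelet form, had 6109 in the control and 6126 with POU2F3 gRNA, against 7850.3 and 7703 with COLCA2 guides 1 and 2. Its log2 ratio was 0.35 ± 0.019 with the COLCA2 guides (SD, n = 2) and 0.0040 with POU2F3 gRNA, the latter turning to -0.030 under equal totals and 0.15 when scaled to reference genes. PFKM, the muscle form, was at 0.25 ± 0.10 (SD, n = 2) and 0.25. PFKL, the liver form, had log2 ratios of -0.027 ± 0.025 (SD, n = 2) and -0.056, the latter turning to 0.088 under scaling to reference genes. Exons of PFKM overlap those of SENP1 on the opposite strand, which had 23.4% to 38.4% of its counts.

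**Figure D2:**
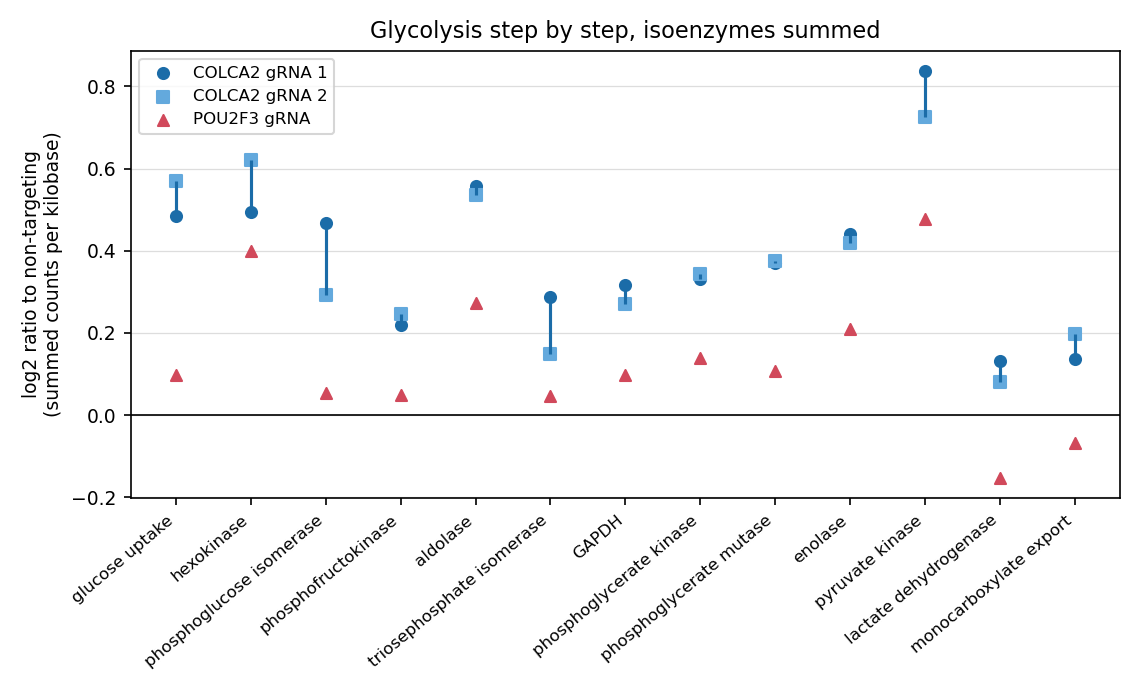
Log2 ratio to the control of each glycolytic step in pathway order, with the isoenzymes of a step summed as normalized counts per kilobase; blue lines join the COLCA2 guides and red triangles are POU2F3 gRNA. The COLCA2 guides are above 0 at all 13 steps, with pyruvate kinase highest at a mean of 0.78, and POU2F3 gRNA is below 0 at lactate dehydrogenase and monocarboxylate export on the deposited scale, where export turns its sign under scaling to reference genes.

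Summed by step per kilobase, the pathway was above the control at each of the 13 steps with both COLCA2 guides. Such sums are carried by the more abundant isoenzymes. By themselves HK2, PFKL, ENO2 and ENO3 were below the control with both guides, and for LDHB the control lay between them. Of all single genes tested, 41.0% were above the control with both guides. The smallest mean log2 ratios were 0.11 ± 0.036 at lactate dehydrogenase and 0.17 ± 0.044 at monocarboxylate export (SD, n = 2), and the largest were 0.78 ± 0.079 at pyruvate kinase, 0.56 ± 0.089 at hexokinase and 0.55 ± 0.015 at aldolase. With POU2F3 gRNA the steps down to pyruvate kinase were above the control by 0.046 to 0.48, lactate dehydrogenase was at -0.15 and export at -0.067. Export turned to 0.077 when libraries were scaled to reference genes, and under that scaling lactate dehydrogenase was at -0.0082, level with the control. Under equal totals lactate dehydrogenase was at 0.057 and 0.017 with COLCA2 guides 1 and 2.

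The fructose bisphosphate switch sets the level of the strongest activator of phosphofructokinase. PFKFB3, the isoform with the strongest kinase activity, had 1500.2 in the control, 1369 and 1312 with COLCA2 guides 1 and 2, and 1200.3 with POU2F3 gRNA. Its log2 ratios were -0.16 ± 0.043 (SD, n = 2) and -0.32. PFKFB2, known from heart, was at 0.11 ± 0.11 (SD, n = 2) and 0.26, and PFKFB4 at -0.19 ± 0.12 (SD, n = 2) and -0.023. The PFKFB4 value with POU2F3 gRNA turned to 0.12 under scaling to reference genes. PFKFB2 shares exonic sequence with YOD1 on the opposite strand, whose counts equalled 97.9% to 103% of its own.

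Lactate dehydrogenase is a tetramer of LDHA and LDHB subunits, and LDHA is the HIF-induced one. LDHA had 13993 in the control and 14179 with POU2F3 gRNA, against 18130 and 17754 with COLCA2 guides 1 and 2, which overlapped neither. Its log2 ratios were 0.36 ± 0.021 (SD, n = 2) and 0.019, and the latter was -0.015 under equal totals and 0.16 when scaled to reference genes. LDHB had 22361 in the control, 22706 and 21772 with COLCA2 guides 1 and 2, and 19109 with POU2F3 gRNA. The control lay between the COLCA2 guides for LDHB, the only 1 of the 36 members for which it did, and POU2F3 gRNA was lowest at a log2 ratio of -0.23. Of the 36 members, the control was below both guides for 26 (72.2%) and above both for 9 (25.0%). Over all genes tested these shares were 41.0% and 41.8%, so a control outside the pair was common.

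Lactate leaves through the monocarboxylate carriers SLC16A1 (MCT1) and SLC16A3 (MCT4), the latter typical of glycolytic and hypoxic cells. SLC16A3 had 135 in the control, 255 and 273 with COLCA2 guides 1 and 2, and 226 with POU2F3 gRNA. Its reads numbered 141 in the control and at most 269. It was 1.89-fold and 2.03-fold higher with COLCA2 guides 1 and 2 and 1.68-fold higher with POU2F3 gRNA, so it stood just short of the 2-fold count. Exons of SLC16A3 overlap those of CSNK1D on the opposite strand, a gene with 1909% to 3656% of its counts. SLC16A1 had 2056 in the control, 2163 and 2251 with COLCA2 guides 1 and 2, and 1874 with POU2F3 gRNA, a log2 ratio of -0.13 that turned to 0.011 under scaling to reference genes.

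Pyruvate dehydrogenase kinases keep pyruvate out of mitochondria by switching off pyruvate dehydrogenase. PDK1, the HIF-1 target among them, had 733 in the control, 477 with COLCA2 guide 1, 695 with COLCA2 guide 2 and 421 with POU2F3 gRNA. The control was highest, but COLCA2 guide 2 was close to it, and the log2 ratio with the COLCA2 guides was -0.35 ± 0.38 (SD, n = 2), within their spread. With POU2F3 gRNA it was -0.80. PDK2 had 606 in the control, 979.7 and 895 with COLCA2 guides 1 and 2, and 706 with POU2F3 gRNA, for log2 ratios of 0.63 ± 0.092 (SD, n = 2) and 0.22. Its exons overlap those of SAMD14 on the opposite strand, which had 40.3% and 37.98% of the PDK2 counts with the COLCA2 guides but 106% with POU2F3 gRNA and 100.5% in the control. PDK3 had log2 ratios of -0.18 ± 0.052 (SD, n = 2) and 0.050. PDK4 was listed at 0 in the control and had 3, 4 and 3 reads in COLCA2 guide 1, COLCA2 guide 2 and POU2F3 gRNA, too few for a fold.

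**Figure D3:**
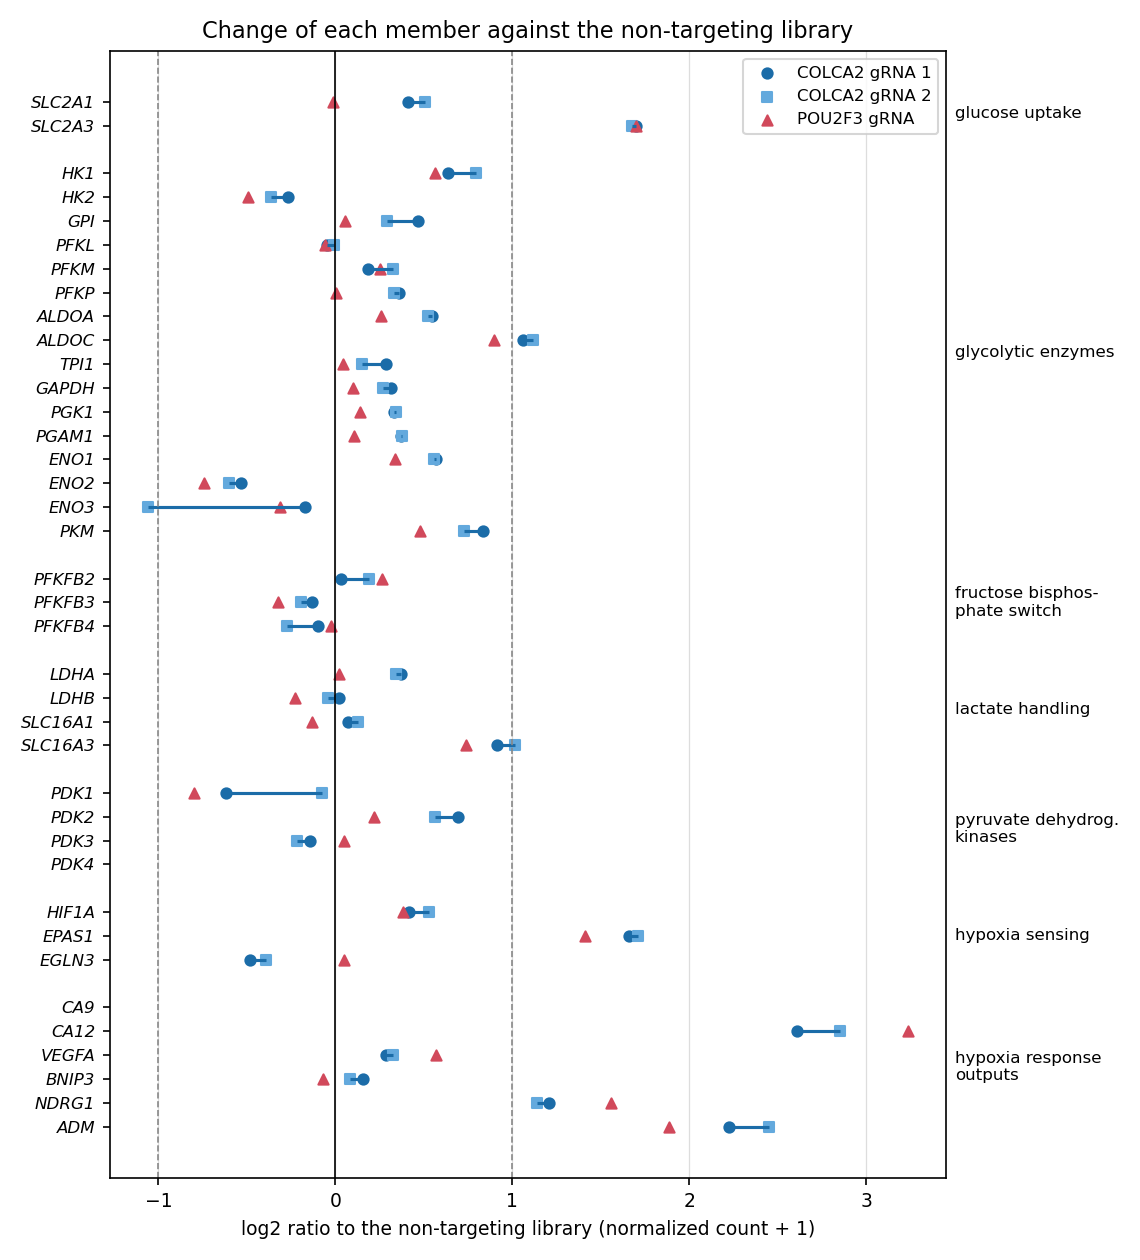
Log2 ratio of each member to the control, grouped by role; blue lines join the COLCA2 guides, red triangles are POU2F3 gRNA and dashed lines mark 2-fold. PDK4 and CA9, which missed the expression minimum, have no points, and the long blue lines of ENO3 and PDK1 show where the guides disagreed.

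Ratios of related members within a library do not depend on how libraries were scaled. HK2 had 0.410 reads for each HK1 read in the control, 0.219 and 0.184 with COLCA2 guides 1 and 2, and 0.198 with POU2F3 gRNA. ENO2 had 0.227 reads for each ENO1 read in the control and 0.106, 0.102 and 0.107 in the same other libraries. Both ratios were thus about 1 log2 unit lower in each targeted library: -1.03 ± 0.18 and -1.05 for HK2 to HK1, and -1.13 ± 0.036 and -1.08 for ENO2 to ENO1 (COLCA2 guides, SD, n = 2, then POU2F3 gRNA). LDHB had 1.60 reads for each LDHA read in the control and 1.25, 1.23 and 1.35 in COLCA2 guide 1, COLCA2 guide 2 and POU2F3 gRNA.

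Other ratios were above the control in each targeted library. SLC16A3 had 0.0655 reads for each SLC16A1 read in the control and 0.118 to 0.121 in the others, and EPAS1 had 0.0414 for each HIF1A read against 0.0849 to 0.0983. SLC2A3 to SLC2A1 went from 0.0365 to between 0.0849 and 0.124. PDK2 to PDK3 differed by target, with 0.560 in the control and 0.629 with POU2F3 gRNA but exactly 1 with COLCA2 guide 1 and 0.961 with COLCA2 guide 2. The overlaps of PDK2 with SAMD14 and of SLC16A3 with CSNK1D apply here too, so the ratios of these members are uncertain. PDK1 to PDK3 followed no group, since COLCA2 guide 1 lay below the control and COLCA2 guide 2 above it.

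**Figure D4:**
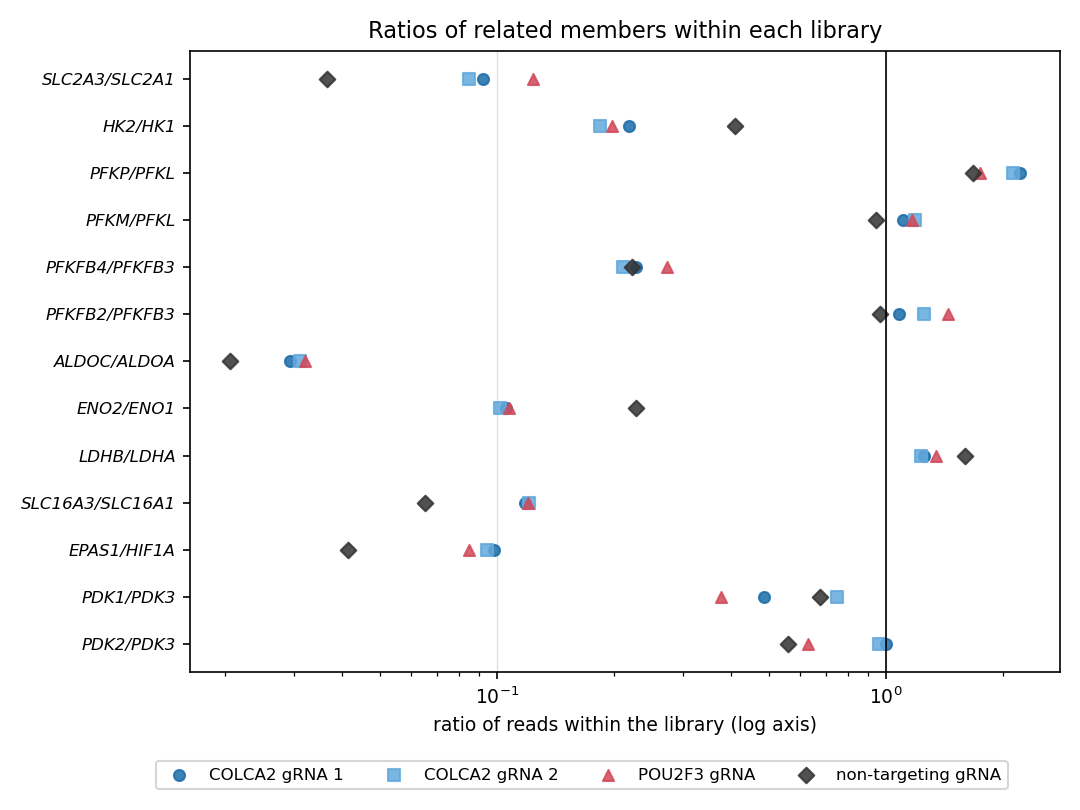
Reads of 1 member for each read of a related member within the same library, on a log axis, for 13 pairs. For HK2/HK1 and ENO2/ENO1 the control lies to the right of the other 3, and for SLC2A3/SLC2A1, SLC16A3/SLC16A1 and EPAS1/HIF1A it lies to the left.

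Promoter sequence was available in the RefSeq table (GRCh38.p14) for 33 of the 38 members, in 63 windows from 250 bases before to 50 after a start. NDRG1, SLC2A3, SLC16A1, PFKFB2 and VEGFA had no entry. The core of the hypoxia response element, to which HIF binds, was searched as ACGTG or GCGTG on both strands. It was found in 40 of the 63 windows (63.5%), against 48.4% of all 35116 windows of the table. The share was 34.9% against 21.4% for the former alone and 42.9% against 36.5% for the latter. The former is also part of the E-box of bHLH factors, found in 12.7% of the member windows and 7.26% of all windows, and the latter is also the core bound by the aryl hydrocarbon receptor. The consensus octamer of POU factors, ATGCAAAT, was found at EGLN3 and PFKP, in 3.17% of the member windows against 1.77% of all. A match is a description of letters and not of binding.

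The sequences below belong to members that were above or below the control in each targeted library, not all of them past 2-fold. They are shown because they contain the core, printed in capitals, with the 5′ end first on the strand of the gene. The stretch before the EPAS1 start, chr2:46297157-46297401 on the plus strand, lies outside annotated exons of the gene and held 1 match. The stretch before the second HK2 start of the table, chr2:74834920-74835169 on the plus strand, held matches at 4 separate places, 2 of them E-boxes matched on both strands. HK2 was below the control with both targets, unlike EPAS1, but by less than 2-fold.
EPAS1: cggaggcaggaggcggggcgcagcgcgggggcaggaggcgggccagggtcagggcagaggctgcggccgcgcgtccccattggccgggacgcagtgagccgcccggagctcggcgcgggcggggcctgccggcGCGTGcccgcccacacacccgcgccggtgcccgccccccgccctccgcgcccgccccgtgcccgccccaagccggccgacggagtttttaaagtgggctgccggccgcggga
HK2: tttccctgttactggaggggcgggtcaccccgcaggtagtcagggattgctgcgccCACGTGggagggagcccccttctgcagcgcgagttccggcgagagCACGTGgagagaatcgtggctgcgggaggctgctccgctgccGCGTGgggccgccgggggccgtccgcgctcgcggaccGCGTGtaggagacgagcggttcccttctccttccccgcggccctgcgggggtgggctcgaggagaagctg

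Short sites are given for 4 members whose upstream bases GENCODE 29 counts as exon of a longer transcript. The CA12 site is at chr15:63382064-63382092 on the minus strand, the ADM site at chr11:10304960-10304988 on the plus strand, the ALDOC site at chr17:28576987-28577015 on the minus strand and the ENO2 site at chr12:6914450-6914478 on the plus strand. CA12, ADM and ALDOC were higher than the control and ENO2 was lower. They were shown for containing the core, so the match within 250 bases before each start was given in advance. By gene, 30 of 33 members (90.9%) had the core in a window, against 52.4% of all genes. EGLN3, PDK4 and PGAM1 did not. The 33 members had 63 windows, while all 27305 genes had 35116. Members thus had more windows per gene, which raises their share by gene, so the 2 shares are not like for like. A single site is printed for each of the 4 members, while the ALDOC window held 5 matches and the CA12 window 2.
CA12: gcggatctcaccCACGCctgccagcagct
ADM: gagcaggagcgcGCGTGgctgaggaaaga
ALDOC: ccgcctctgaggGCGTGgtcttgccccgg
ENO2: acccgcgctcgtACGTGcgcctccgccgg

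The targets were also set against each other without the control. None of the 36 members was 2-fold lower or higher with POU2F3 gRNA than with both COLCA2 guides, where 0.924% and 0.442% of all genes were. None was 2-fold apart between the guides, where 2.22% of all genes were. At such small shares a count of 0 does not set the members apart from other genes. POU2F3 gRNA lay below both COLCA2 guides at 26 members (72.2%) and above both at 8, against 38.9% and 35.6% of all genes. Of the 16 glycolytic enzymes 14 were below both, with a median difference of -0.19 on the log2 scale. The same held for 13 of 16 reference genes, chosen for stable expression, whose median difference was -0.21. When libraries were scaled to those reference genes, the enzymes' median difference was -0.037 and 9 of the 16 were below both guides. Members above both guides were SLC2A3, PFKFB2, PFKFB4, PDK3, CA12, VEGFA, NDRG1 and EGLN3.

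Against the control, the median log2 ratio of the reference genes was -0.011 with the COLCA2 guides and -0.15 with POU2F3 gRNA, beside 0.34 and 0.10 for the 36 members. Scaled to the reference genes, the members' medians were 0.33 and 0.25.

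The edgeR quasi-likelihood test on the recovered reads, adjusted over all 14940 genes at 0.05, has 1 residual degree of freedom, which comes from the COLCA2 pair. Both the control and the POU2F3 knockout are single libraries assumed to vary like that pair, so the calls for either target compare these libraries, not conditions. With COLCA2 it called 19 of the 36 members higher (background 11.4%) and ENO2 and EGLN3 lower (background 7.51%). Those higher were SLC2A3, HK1, GPI, PFKP, ALDOA, ALDOC, GAPDH, PGK1, PGAM1, ENO1, PKM, LDHA, SLC16A3, PDK2, HIF1A, EPAS1, CA12, NDRG1 and ADM. With POU2F3 it called HK1, ALDOC, ENO1, PKM, EPAS1, CA12, VEGFA, NDRG1 and ADM higher (background 8.45%) and ENO2 lower (background 3.98%). An unadjusted p under 0.05 was found for 26 members with COLCA2 and 17 with POU2F3, where 32.8% and 26.6% of all genes had one. For POU2F3 against COLCA2 it called 0 members, where 0.234% of all genes were called lower and 0.107% higher, and 15 members had an unadjusted p under 0.05, or 41.7% against 13.6% of all genes.

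Other genes of the pathway came from 6 lists drawn up from general knowledge. Of 26 isoenzymes and enzymes of side reactions 14 passed the minimum, and HKDC1, a further hexokinase, was the only 1 at least 2-fold higher with each target, none being lower. That is 7.14% of the 14, near the 5.79% and 6.73% of all genes, and no list below with 1 such gene is set apart by its count. HKDC1 had 10.5 in the control, 82.9 and 88.2 with COLCA2 guides 1 and 2, and 73.9 with POU2F3 gRNA. Its control value was itself below the minimum, which HKDC1 passed on its mean through the targeted libraries. Its log2 ratios were 2.91 ± 0.062 (SD, n = 2) and 2.70, opposite in direction to those of HK2. With so low a control value and no counting interval, the size of these ratios is uncertain. Among 11 genes that carry pyruvate into mitochondrial oxidation, PDP1, the phosphatase that opposes the PDK enzymes, was the only 1 past 2-fold (9.09%). It had 396 in the control, 899 and 1054 with the COLCA2 guides and 891 with POU2F3 gRNA.

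None of 7 pentose phosphate genes or of 7 measured genes of gluconeogenesis and glycogen reached 2-fold with either target. Of all genes, 5.79% and 6.73% were higher with COLCA2 and POU2F3, so a count of 0 among 7 does not set these lists apart. Of 10 regulators of HIF, CITED2, which competes with HIF-1α for its co-activators, was the only 1 at least 2-fold higher (10%), at 1282 in the control, 3214 and 3332 with the COLCA2 guides and 3145 with POU2F3 gRNA. The HIF partner, VHL and prolyl hydroxylase genes on that list did not reach 2-fold.

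Of 26 other genes known to be induced by hypoxia, 23 passed the minimum, 3 were at least 2-fold higher with both COLCA2 guides and 4 with POU2F3 gRNA, and none was 2-fold lower. The shares of 13.04% and 17.4% stand beside 5.79% and 6.73% of all genes, and 2.02% and 3.05% of all genes were lower. BHLHE40, a transcriptional repressor, had 311 in the control, 1478 and 1596 with COLCA2 guides 1 and 2, and 1115 with POU2F3 gRNA. HMOX1, the heme oxygenase, had 181 against 814 and 756 with the COLCA2 guides and 519.6 with POU2F3 gRNA. CXCR4, a chemokine receptor, had 46.8 against 154 and 178 with the COLCA2 guides and 274 with POU2F3 gRNA. DDIT4, an inhibitor of mTORC1, reached 2-fold with POU2F3 gRNA alone, at 2579 against 1230 in the control, with 1475 and 1464 for the COLCA2 guides. Over the 23, log2 ratios had a median of 0.12 for the COLCA2 guides and 0.16 for POU2F3 gRNA.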

How the data were processed

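Each deposited table gives, per the file headers, a linear signal for 1 library: its normalized count for every gene. Per the submitters' processing notes, Salmon and DESeq2 were used with hg38, while the annotation, versions and use of the strand are not given in the sources used here. In each library 100% of the deposited signal values were whole multiples of 1 step (tolerance 0.01 reads), so whole reads were recovered by dividing by it. Such reads may be rounded estimates.

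Rows of the same symbol were summed, which touched GPI and SLC16A1 (2 rows each). Ratios used log2(value + 1), a minimum mean of 20 and a fold of 2. The members, lists and tests were chosen with earlier results of these data known. All members are named, with other pathway genes past 2-fold, at most 4 per list. Lengths are those of the APPRIS principal transcript in GENCODE 29. LDHA was counted under a gene identifier other than its GENCODE 29 one, so its length was matched by symbol. edgeR 4.0.16 in R 4.3.3 gave the count test with TMM factors. The scripts were tested on simulated data. Scalings, pseudocounts, minimums, folds, guides left out and single rows were tried as alternatives. The libraries held 21587741 to 29632382 reads, and intervals are exact and cover counting error only. Guide sequences and protein sequences were not used here.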

Additional observations from a re-analysis of the deposited data

How the results depend on the processing

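No paired analysis was possible because 2 of the 3 groups hold 1 library each, so at most 1 number is shared. Under 4 scalings, a pseudocount of 0.1 or 10 and the highest row of each symbol, each count of members past 2-fold stayed within 1.5 times its value, but ALDOC left the COLCA2 count under equal totals (5) and entered the POU2F3 count when scaled to reference genes (6). The 6 members higher with both COLCA2 guides were 2 at a fold of 4 and 19 by edgeR's test, and the 5 higher with POU2F3 gRNA were 1 and 9. Against 0 lower, edgeR called 2 with COLCA2 and 1 with POU2F3, and a fold of 1.5 gave 2 with POU2F3. The counts with 1 guide left out ranged from 0 to 1 lower, the 1 being ENO3 without gRNA 1, and from 6 to 7 higher. Between the guides 1 member differed without a minimum and 1 at a fold of 1.5. A minimum mean of 100, which SLC2A3 missed at 57.8, gave 5 members higher with the COLCA2 guides and 4 with POU2F3 gRNA. Without a minimum, where CA9 and PDK4 entered, these counts were 8 and 7. At a fold of 1.5 they were 9 and 7. The median of the members with the COLCA2 guides was 0.27 under equal totals, 0.33 scaled to reference genes and 0.35 without a minimum, and 0.33 to 0.35 with 1 guide left out. With POU2F3 gRNA it was 0.068, 0.25 and 0.12 in the same order and 0.11 with TMM factors. Scaling to reference genes shifted the median of all genes by 0.14 with POU2F3 gRNA. No member past 2-fold changed sign, and 8 members below 2-fold did in at least 1 alternative. With 1 library in each of 2 groups, and 0 to 4 reads, CA9 and PDK4 could not be compared.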
